A study of Oncorhynchus mykiss with 18 samples.

Results

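The sites described here are the short H3K4me3 peaks of a rainbow trout (Oncorhynchus mykiss) testis carrying the Prdm9 2/6 genotype that also held H3K36me3 and that had no H3K4me3 counterpart in a testis with other Prdm9 alleles. They were chosen by the peak calls themselves. A site was an H3K4me3 peak of individual TAC-3 under 2500 bp wide that overlapped an H3K36me3 peak of TAC-3 by at least 1 bp and overlapped no H3K4me3 peak of individual TAC-1. There were 2938 such private dual-marked sites among the 50548 H3K4me3 peaks of TAC-3, or 5.81% of the list. The number and widths of sites, scores and overlap of both TAC-3 marks, and absence of TAC-1 H3K4me3 are therefore properties of the selection. They are given as a description. The rule used neither the DMC1 lists nor the H3K36me3 list of TAC-1, positions along chromosomes or genes.

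PRDM9 is a meiotic DNA-binding protein whose zinc finger array, which differs between alleles, recognises a DNA motif, and whose SET domain places methyl groups on histone H3 at lysine 4 and lysine 36. In mice and humans, the sites that carry both marks are where programmed meiotic DNA double-strand breaks (DSBs) are made. H3K4me3 is also found at active promoters without PRDM9, and H3K36me3 along the bodies of transcribed genes, so either mark alone does not separate PRDM9 sites from the rest. DMC1 is a meiosis-specific recombinase that coats the single-stranded DNA left when a DSB is resected, and its sequencing (DMC1-SSDS) maps DSB hotspots.

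All samples were testes of strain INRA-AUT, from 1 individual per genotype. TAC-3 (Prdm9 2/6) and TAC-1 (Prdm9 1/5), both at maturation stage III, shared no Prdm9 allele. RT-52 (Prdm9 1/2), at stage IV and profiled for DMC1 only, shared allele 2 with TAC-3 and allele 1 with TAC-1. No Prdm9-deficient sample stands among them. With 1 individual per genotype, genotype cannot be told apart from individual or, for RT-52, from stage.

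Each of the 7 peak lists combined 2 replicates of 1 individual into a single list, so no spread between replicates could be given. The lists differed widely in length. TAC-3 had 40535 peaks of H3K36me3, whereas the TAC-1 lists held 153665 (H3K4me3) and 162044 (H3K36me3). The DMC1 hotspots numbered 209 (TAC-3), 1924 (RT-52) and 616 (TAC-1). Read numbers were not used here, and the part of sequencing depth in these lengths was not tested. Marker genes of cell types were looked up in the gene annotation. All 7 meiotic and 6 of 7 germ cell genes found (not tdrd9) had a TAC-3 H3K4me3 peak within 1 kb of a boundary. This held for 1 of 2 Sertoli cell genes (not gsdf), 2 of 4 Leydig cell genes (not star or hsd3b1) and neither of the 2 red blood cell genes (alas2 and epor). The share of all annotated genes with such a peak was not computed, so these counts are no check of the tissue. None of these marker genes had a private dual-marked site at its boundary. With 316 sites within 1 kb of any boundary of 54080 genes on chromosomes, a count of 0 in so few genes is uninformative.

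Of the TAC-3 H3K4me3 peaks, 48901 were under 2500 bp. H3K36me3 was called at 4140 of these, and the private dual-marked sites made up 71.0% of that dual-marked set. The remaining 1202 short dual-marked peaks had an H3K4me3 peak in TAC-1 as well and are called common dual-marked sites below. Without H3K36me3, 10820 short peaks were private to TAC-3 (private H3K4me3-only sites) and 33941 were common. The private dual-marked sites were thus 21.4% of the 13758 short peaks that TAC-3 did not share with TAC-1. A further 75 private dual-marked peaks were 2500 bp or wider and were left out by the rule. The widest site kept measured 2499 bp (chr15:20235648-20238146, H3K4me3 score 336, H3K36me3 score 236) and its nearest gene, 71452 bp from the site centre, was tfap2a, which encodes the transcription factor AP-2 alpha. The narrowest peak left out measured 2505 bp (chr14:18773552-18776056, scores 276 and 202), with its centre 436 bp from LOC110488940.

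The sites had a median width of 834 bp, quartiles of 346 and 1295 bp and a range from 117 to 2499 bp. Their widths had more than 1 mode. The bins of 100 bp held 330 sites from 100 to 200 bp, fell to 113 sites from 500 to 600 bp and rose again to 177 sites both from 800 to 900 bp and from 1000 to 1100 bp. The median was 326 bp in private H3K4me3-only sites and 586 bp in common dual-marked sites. It was 859 bp in common H3K4me3-only peaks and 727 bp over all short peaks. The H3K4me3 score, which is the mean of the scores that the peak caller MACS2 gave to the neighbouring peaks merged into 1, had a median of 204 (quartiles 131 and 320, range 50 to 2529). The median score was 130 in private H3K4me3-only sites, 170 in common dual-marked sites, 240 in common H3K4me3-only peaks and 188 over all short peaks. H3K36me3 scores at the sites had a median of 156 (quartiles 118 and 215, highest 3713), beside 136 over all TAC-3 H3K36me3 peaks.

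**Figure D1:**
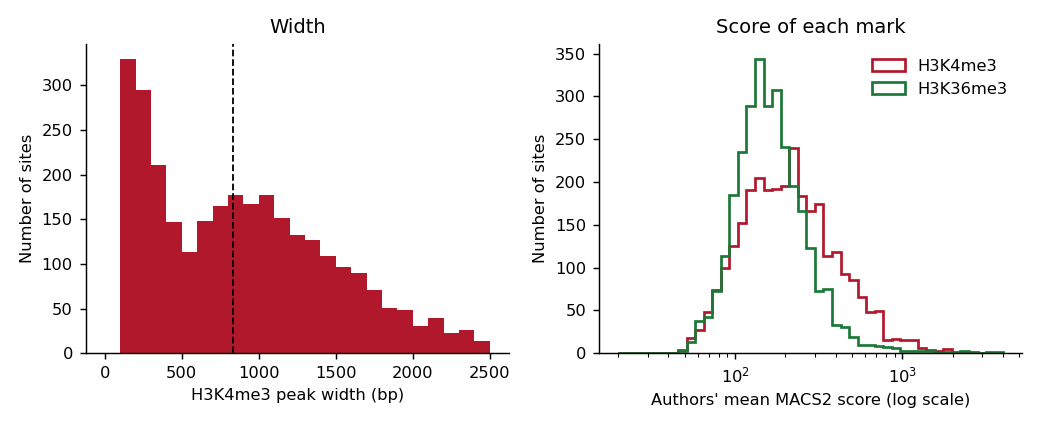
Left, number of private dual-marked sites by H3K4me3 peak width in bins of 100 bp, with the median of 834 bp dashed. Right, number of sites by the authors' mean MACS2 score of H3K4me3 and of H3K36me3 on a log axis; the medians were 204 and 156 and the upper quartiles 320 and 215, while the highest score was 2529 for H3K4me3 and 3713 for H3K36me3.

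Both marks overlap at every site by the rule, so the extent of their overlap is given as a description. It was not measured in the common dual-marked sites. The H3K36me3 peak under a site had a median width of 1362 bp (quartiles 545 and 2404 bp), and it covered the whole H3K4me3 peak at 1476 sites (50.2%) and at least 50% of its length at 2558 sites (87.1%). The centres of the 2 peaks were a median of 217 bp apart and lay within 500 bp of each other at 2223 sites (75.7%). The H3K36me3 peak was itself under 2500 bp at 2250 sites (76.6%) and 10 kb or longer at 49 (1.67%), close to 77.7% and 1.34% of all TAC-3 H3K36me3 peaks, whose median width was 976 bp. The 2938 sites fell on 2927 distinct H3K36me3 peaks. Across sites, the scores of both marks had a Spearman's rho of 0.385 and the H3K4me3 score and width 0.528. These are descriptions over sites of 1 individual, and score and width come from the same peak call.

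The strongest H3K4me3 at any site was a score of 2529 at a 278-bp peak on an unplaced scaffold, with an H3K36me3 score of 1074. Second was another unplaced site, 1166 bp wide, with a score of 2176 and the highest H3K36me3 score of all, 3713. On chromosomes, the leading H3K4me3 scores were 1973 at chr7:11467924-11469599, whose centre lay 244 bp from LOC110528832, 1950 at chr2:89591439-89593647, 5397 bp from LOC110499327, and 1950 at chr6:21033001-21034685, within tor2a, which encodes a member of the torsin family of ATPases. After the unplaced site, H3K36me3 was strongest within LOC110510636 (chr6:96558634-96558930, H3K36me3 score 3169, H3K4me3 score 369). Next were a site 7154 bp from LOC110489606 (chr15:13386726-13388298, H3K36me3 score 2346) and a site within LOC110487768 (chr14:29641362-29641603, H3K36me3 score 2327). The fifth, at 1782, was a 172-bp peak on an unplaced scaffold. None of these 9 sites met a DMC1 hotspot, where 92.5% of all 2938 sites met neither the TAC-3 nor the RT-52 list. With so few sites, no pattern is read from this.

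DMC1 hotspots were then placed on the sites, using the central 400 bp of each hotspot and the full length of each site. Of the 2938 sites, 25 met the TAC-3 DMC1 list, or 0.851% (95% Wilson interval 0.577 to 1.25), where 0.0838% of all short TAC-3 H3K4me3 peaks did. The RT-52 list was met by 210 sites, or 7.15% (6.27 to 8.14), where 0.830% of all short peaks did. The TAC-1 list was met by none of the 2938 sites, which allows a share of up to 0.102%, where 0.0266% of all short peaks did. The absence of TAC-1 hotspots was not detectable as a departure from the other classes at these numbers, since the difference from private H3K4me3-only sites (3 of 10820, 0.0277%) had an interval from -0.0815 to 0.104 percentage points. Intervals here cover the counting error over sites only, not differences between fish or libraries.

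To set these shares against placement without regard to the marks, each site was slid over every position of its own chromosome and the share of positions at which a site of its width would meet the list was computed exactly. For the 2883 sites on chromosomes this share was 0.0115% for the TAC-3 list, 0.111% for the RT-52 list and 0.0350% for the TAC-1 list. It corresponds to 0.331, 3.21 and 1.01 sites, beside 25, 203 and 0 observed on chromosomes. The observed share was 75.5 times the placement share for TAC-3 and 63.2 times for RT-52. When positions were limited to the same 10% segment of the chromosome as the site, the ratios were 83.4 and 70.9. Over whole chromosomes, the ratios for TAC-3 and RT-52 were 31.5 and 46.1 at common dual-marked sites and 10.9 and 12.8 at private H3K4me3-only sites. Placement over genomic positions takes no account of mappability or open chromatin, and the other classes of H3K4me3 peaks are the closer comparison.

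**Figure D2:**
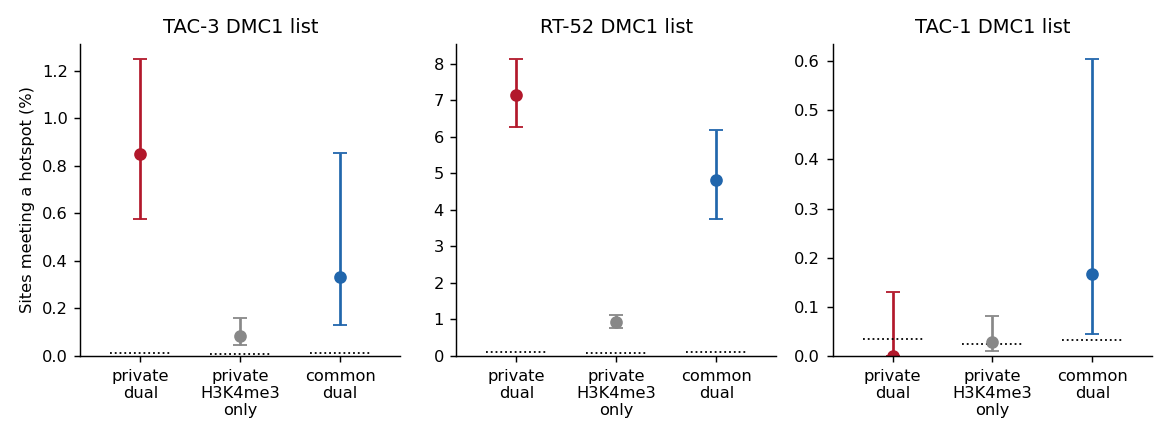
Share of sites (%) that met the central 400 bp of a DMC1 hotspot of TAC-3, RT-52 or TAC-1, for private dual-marked, private H3K4me3-only and common dual-marked sites; each panel has its own scale. Points are shares, bars 95% Wilson intervals, and dotted lines the share of positions on the same chromosomes at which sites of the same widths would meet the list; private dual-marked sites stood at 0.851%, 7.15% and 0%.

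Private H3K4me3-only sites met the TAC-3 list in 9 of 10820 cases (0.0832%) and the RT-52 list in 101 (0.933%). Private dual-marked sites exceeded them by 0.768 percentage points for TAC-3 (95% Newcombe interval 0.484 to 1.17) and by 6.21 points for RT-52 (5.32 to 7.22). Within the sites private to TAC-3, hotspots thus lay mainly where H3K36me3 accompanied H3K4me3. Common dual-marked sites met the RT-52 list at 4.83% (58 of 1202), which was 2.32 points less than the private ones (0.703 to 3.78). For the TAC-3 list, common dual-marked sites stood at 0.333% (4 of 1202), and the interval of the difference, -0.0694 to 0.969 points, included 0. Which sites count as common depends on the length of the TAC-1 H3K4me3 list. With that list cut to the length of the TAC-3 list, 3520 sites were private, and the contrast with common sites was not computed again. Seen from the hotspots, private dual-marked sites were 6.01% of the short TAC-3 H3K4me3 peaks and held 25 of the 209 TAC-3 hotspots (12.0%) and 210 of the 1924 RT-52 hotspots (10.9%). The common H3K4me3-only peaks, 69.4% of the short peaks, held 3 (1.44%) and 37 (1.92%). These hotspot shares are of the whole lists. In all, only 41 short TAC-3 H3K4me3 peaks met the TAC-3 list and 406 the RT-52 list. Most hotspots, also those of TAC-3 itself, thus lay on no short TAC-3 H3K4me3 peak of any class. The paper holds that hotspots shared by the TAC-1 and TAC-3 lists may be artifacts, because their strand pattern was not typical of DSB hotspots. Such hotspots are kept in the other counts here. Without them, the TAC-3 list was met by 25 sites (0.851%). As none of the sites met the TAC-1 list, this removal could hardly change the count and is no check on artifacts.

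The same rule turned around, for short TAC-1 H3K4me3 peaks with TAC-1 H3K36me3 and without H3K4me3 in TAC-3, gave 85227 sites. Since that list is so much longer, its 2938 highest H3K4me3 scores were set beside the TAC-3 sites. Of these, 54 met the TAC-1 list (1.84%), 90 the RT-52 list (3.06%) and none the TAC-3 list. Their H3K4me3 scores had a median of 1151 (lowest 882), beside 204 (lowest 50) at the TAC-3 sites. The selections are thus unlike, and their shares are not compared. The rule removes every site with H3K4me3 in the other individual, and placement gives 1.01 sites for the TAC-1 list at the TAC-3 sites, so no pattern by allele is read from the counts of 0. In the whole set of 85227, 126 sites met the TAC-1 list (0.148%), 283 the RT-52 list (0.332%) and 4 the TAC-3 list (0.00469%). The shares over all short TAC-1 H3K4me3 peaks were not computed. Since the lists of these individuals differ so much in length, the sizes of the 2 sets are not compared.

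Of the 25 sites that met the TAC-3 list, 15 also met the RT-52 list (60.0%, 40.7 to 76.6), beside 195 of the other 2913 sites (6.69%). In all, 220 sites (7.49%) met 1 or both lists and 2718 (92.5%) met neither. The 15 sites with hotspots in both individuals lay on 13 chromosomes, 11 of them in the outer 10% at a chromosome end. Of the 10 sites that met only the TAC-3 list, 7 lay there. So did 48.3% of all RT-52 hotspots at sites on chromosomes, beside 18.2% of all sites on chromosomes. A place at the ends is therefore not read as particular to the 15 sites. Their DMC1 values, which are normalised hotspot values without a unit, ranged from 31 to 140 (median 44) in TAC-3 and from 62 to 2104 (median 234) in RT-52. The median was 58 over the whole TAC-3 list and 93 over the RT-52 list. The RT-52 list also held 3 values below 0, the lowest -180 and none of them at a site, and what a negative value means is not given in the sources used here, so the values are used for their order only. H3K4me3 scores at the 15 sites ran from 172 to 1084, with a median of 289. The 10 sites that met only the TAC-3 list had DMC1 values from 29 to 94 (median 80) and H3K4me3 scores from 202 to 824.

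The highest TAC-3 DMC1 value at any of these 15 sites, 140 (rank 16 of 209), was at chr10:85726202-85726955, a 754-bp site within LOC110513755, 12220 bp from the nearest end of the gene. There the RT-52 value was 2104, the fourth highest of that list, although the scores of H3K4me3 (172) and H3K36me3 (147) were below the medians of the sites. The second, at chr10:6085628-6087030, lay 66354 bp from the nearest gene, LOC110533286, and combined the highest H3K4me3 score of the 15 (1084) with an H3K36me3 score of 448 and DMC1 values of 79 in TAC-3 and 468 in RT-52. At chr21:59391459-59393567, a 2109-bp site within LOC110500772, the TAC-3 value was 74 and the hotspot centre lay 58 bp from the site centre. A site of 1119 bp at chr12:8010721-8011839 lay within sdad1, whose yeast counterpart acts in ribosome assembly. Its TAC-3 value was 63 and its RT-52 value 76, and TAC-1 also had H3K36me3 there.

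The next sites by TAC-3 value were spread over other chromosomes. One at chr31:6978712-6981076, with TAC-3 and RT-52 values of 63 and 576, lay 147974 bp from any gene. One on the Y chromosome (chrY:46955969-46956284, values 62 and 376) had its centre 1818 bp from pigs, which in humans encodes a subunit of the complex that attaches glycosylphosphatidylinositol anchors to proteins. At chr20:5240337-5241609, within LOC110498837, a TAC-3 value of 48 went with an RT-52 value of 1405, rank 13 of 1924. The values were 44 in TAC-3 at each of chr1:6034229-6035793 (RT-52 value 557, 47930 bp from LOC118966178), chr17:4782024-4782779 (RT-52 value 234, within LOC110514645) and chr19:59157146-59158675 (RT-52 value 159, 62125 bp from LOC110498210). A value of 43 was recorded at chr2:98620273-98621618 within LOC110500756, where the RT-52 value was 480. The site at chr5:8685672-8687543, with values of 42 and 156, lay within chsy3, which in humans encodes a chondroitin sulfate synthase. Of these 12 sites, 7 lay within a gene and 5 outside, where 69.8% of all sites on chromosomes had their centre in a gene. With 12 sites, no pattern is read from this.

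A stronger H3K4me3 call went with more hotspots, whereas the H3K36me3 score showed no steady rise. Sites with a higher H3K4me3 score were also wider (Spearman's rho 0.528). The score groups were not divided by width, so the parts of score and width are not separated here. When the sites were divided by H3K4me3 score into 5 groups of equal size, from the lowest scores to the highest, the share of sites that met the RT-52 list was 2.39%, 4.08%, 6.81%, 9.35% and 13.1% (10.6 to 16.1 in the highest). For the TAC-3 list the same groups held 0, 0, 6, 7 and 12 sites. Over 5 such groups by H3K36me3 score the RT-52 share was 6.98%, 6.12%, 6.47%, 7.65% and 8.50%, with intervals that overlapped throughout. The TAC-3 list was met by 0, 7, 4, 10 and 4 sites in these groups, and the lowest of them (0 to 0.650%) and the fourth (0.926 to 3.10%) did not overlap. Sites that met the RT-52 list had a median width of 1251 bp and a median H3K4me3 score of 287, where the other sites had 803 bp and 198. Their median H3K36me3 score was 161, beside 156. The 25 sites that met the TAC-3 list had medians of 1403 bp, 346 and 178. Over the 210 sites with an RT-52 hotspot, the Spearman's rho between TAC-3 H3K4me3 score and RT-52 DMC1 value was -0.032. The median value at these sites, 92, was close to the 93 of the RT-52 hotspots elsewhere. Score and value come from different fish at different stages, and only called hotspots enter. Their relation within the same fish was not tested.

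A wider site has more room to meet a hotspot, so the classes were also compared within bands of width. Under 500 bp, 2.44% of private dual-marked sites (24 of 983) met the RT-52 list, beside 0.547% of private H3K4me3-only sites. From 500 to 1000 bp the shares were 7.14% and 0.983%, from 1000 to 1500 bp 9.48% and 2.32%, and from 1500 to 2500 bp 13.3% and 4.20%. The difference was 1.89 points (1.07 to 3.07) in the narrowest band and 9.09 points (5.39 to 12.8) in the widest. Against common dual-marked sites it was 1.73 points under 500 bp (0.378 to 2.98), and in the 3 wider bands its interval included 0, as at 1500 to 2500 bp (0.684 points, -4.93 to 5.63). Private sites stood higher in every band, by 3.14 points from 500 to 1000 bp and 1.27 points from 1000 to 1500 bp. The 3 wider bands held only 200 to 230 common sites each, and within each of them alone the difference was not separable from counting error. No estimate over all bands together was computed, so whether the 2.32-point difference holds at equal width was not tested.

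Among sites with an H3K4me3 score of 400 or more, 13.7% of private dual-marked sites (67 of 488) met the RT-52 list but only 0.416% of private H3K4me3-only sites (3 of 722) did, a difference of 13.3 points (10.4 to 16.7). At scores from 50 to 100 the difference was 1.71 points (0.632 to 3.81). The share thus rose with the H3K4me3 score among private dual-marked sites, from 2.03% to 13.7%. Among private H3K4me3-only sites it stood at 0.321%, 1.08%, 1.76% and 0.416% over the same 4 bands. Common dual-marked sites also rose, with 0.403%, 3.15%, 8.04% and 8.93%. The interval of their difference from the private dual-marked sites included 0 in each band. Width was not held constant in these score bands.

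**Figure D3:**
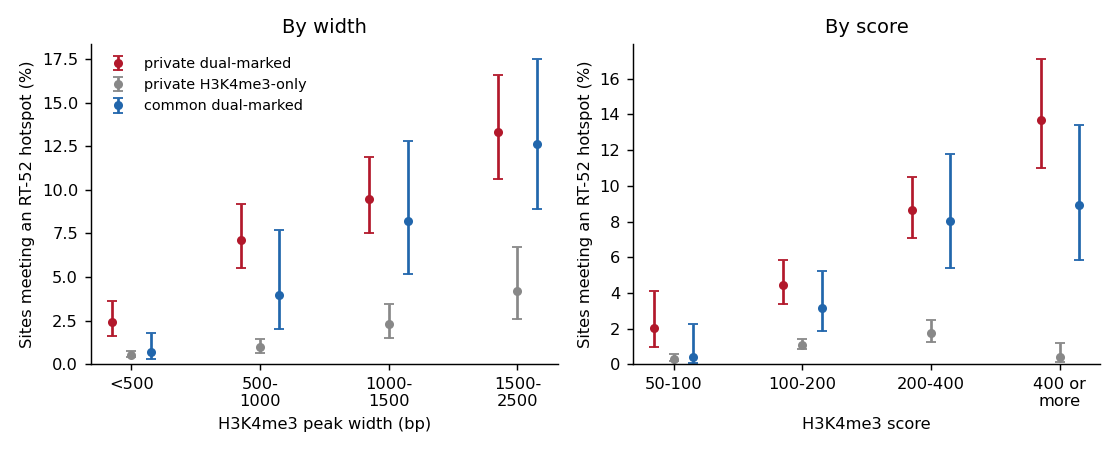
Share of sites (%) that met the RT-52 DMC1 list in 4 bands of H3K4me3 peak width (left) and of H3K4me3 score (right), for 3 classes of TAC-3 H3K4me3 peaks; bars are 95% Wilson intervals. Private dual-marked sites rose from 2.44% to 13.3% with width and from 2.03% to 13.7% with score. Common dual-marked sites rose from 0.708% to 12.6% with width and from 0.403% to 8.93% with score. Private H3K4me3-only sites rose from 0.547% to 4.20% with width and showed no steady rise with score.

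Hotspot centres fell close to the centres of the sites. For the 210 RT-52 hotspots, the median distance from the centre of the site was 151 bp (quartiles 81 and 264 bp, highest 806 bp), and 134 (63.8%) were within 200 bp. For the 25 TAC-3 hotspots the median was 250 bp. The overlap that defines a meeting bounds these distances, so hotspot centres were also counted up to 5 kb from each site centre. Within 500 bp there were 71.8 RT-52 hotspot centres per 1000 private dual-marked sites, 44.1 per 1000 common dual-marked sites and 10.1 per 1000 private H3K4me3-only sites. From 500 to 5000 bp, a span 9 times as long, there were 16.0, 19.1 and 6.84.

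**Figure D4:**
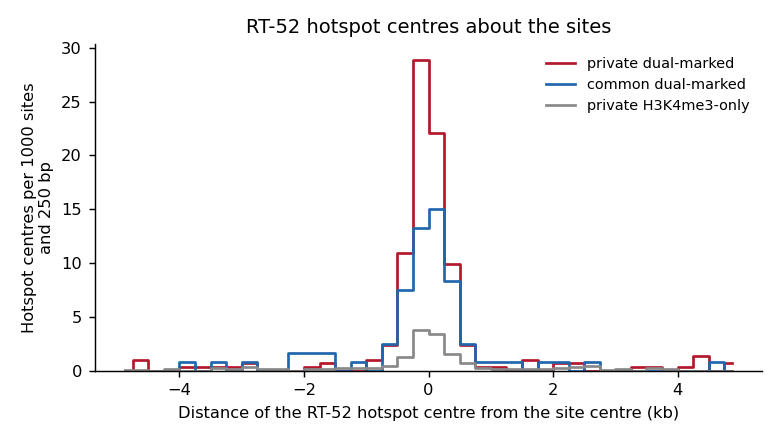
Number of RT-52 DMC1 hotspot centres per 1000 sites in bins of 250 bp, by distance (kb) from the site centre, for private dual-marked, common dual-marked and private H3K4me3-only sites. All 3 classes peaked at the site centre, and the private dual-marked sites, with 71.8 centres per 1000 sites within 500 bp, stood highest.

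Along the chromosomes the sites were spread almost evenly. All 32 chromosomes carried sites, at 0.988 per Mb (chromosome 17, 94 sites) to 1.66 per Mb (chromosome 24, 76 sites) and 1.29 per Mb in all. Each carried at least 1 site that met the RT-52 list, but these were less evenly shared. They numbered 1 of 66 sites on chromosome 28, 1 of 48 on chromosome 14 and 17 of 65 on the Y chromosome. The differences between chromosomes were not tested. The other 55 sites lay on 38 unplaced scaffolds. Neighbouring sites on a chromosome were a median of 474 kb apart, and 245 of the 2851 gaps (8.59%) were under 50 kb. Segments of 10% of chromosome length held between 8.01% and 10.9% of the sites. The outer 10% at each end together held 524 of the 2883 sites on chromosomes, or 18.2% (16.8 to 19.6), where 16.7% of all short TAC-3 H3K4me3 peaks and 20% of chromosome length lay there. Private H3K4me3-only sites were slightly more frequent there, at 20.5%, a difference of -2.30 points (-3.87 to -0.656).

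DMC1 hotspots were distributed differently, and so were the sites that met them. The first and last segments held 27.8% and 29.4% of the RT-52 hotspots and 23.9% and 27.4% of the TAC-3 hotspots. Of the sites in the outer 10% at each end, 18.7% (98 of 524) met the RT-52 list, beside 4.45% (105 of 2359) of those in the middle 80%, a difference of 14.3 points (11.0 to 17.9). The other classes had a contrast in the same direction, with 64 of 2131 private H3K4me3-only sites at the ends and 34 of 8279 in the middle (0.411%), and with 14.6% and 2.48% of common dual-marked sites. For the TAC-3 list these shares were 3.44% (18 sites) and 0.297% (7 sites), a difference of 3.14 points (1.85 to 5.07). In pairs of 10% segments from the ends to the middle, the RT-52 share fell from 18.7% to 8.90%, 4.64%, 2.26% and 1.38%. The median H3K4me3 score of the sites was 210, 213, 198, 200 and 202 in the same order. The share of positions in the same segment that would meet a hotspot was 0.263%, 0.137%, 0.0608%, 0.0246% and 0.0212%, so the observed share was between 65.1 and 91.7 times the placement share in every pair of segments. Of the RT-52 hotspots at the sites, 48.3% lay in the outer 10% at each end, beside 58.3% of the other RT-52 hotspots (a difference of -10.0 points, -17.2 to -2.76). The median H3K4me3 score thus changed little along the chromosome while the share with a hotspot fell, and that fall ran alongside the density of RT-52 hotspots as a whole.

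The contrast between ends and middle was present in each band of width. It was 6.64% against 0.696% under 500 bp, 25% against 3.17% from 500 to 1000 bp, 33.3% against 5.41% from 1000 to 1500 bp, and 25% against 11.5% from 1500 to 2500 bp. The differences ran from 5.94 points (3.21 to 9.98) in the narrowest band to 27.9 points (19.3 to 37.6) from 1000 to 1500 bp. Narrow sites were themselves more frequent at the ends, which held 23.9% of the sites under 500 bp and 14.0% of those from 1500 to 2500 bp.

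**Figure D5:**
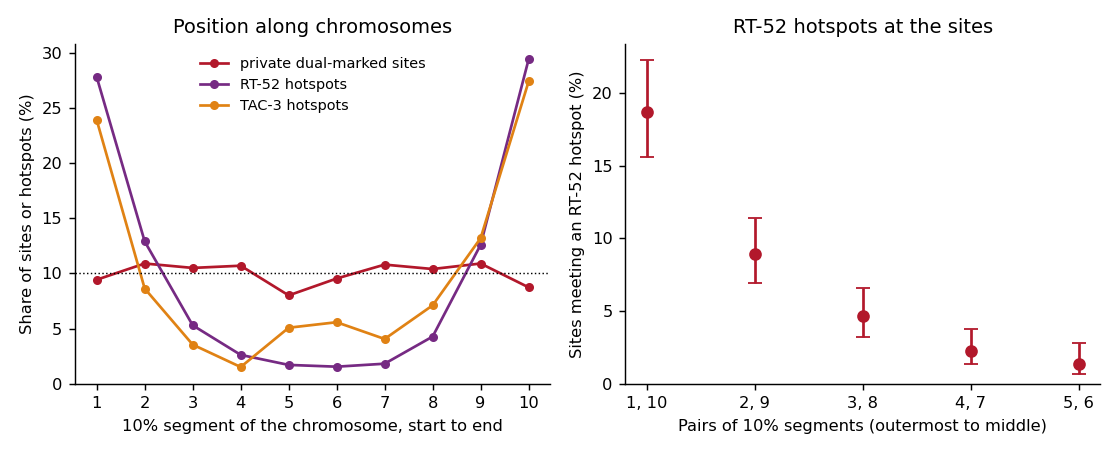
Left, share (%) of private dual-marked sites, RT-52 hotspots and TAC-3 hotspots in each 10% segment of the chromosome, with 10% dotted. Right, share of sites (%) that met the RT-52 list in pairs of segments from the outermost to the middle, with 95% Wilson intervals; sites held 8.01% to 10.9% per segment, while the share with a hotspot fell from 18.7% to 1.38%.

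The sites lay at gene boundaries less often than short TAC-3 H3K4me3 peaks in general. Of those on chromosomes, 316 lay within 1 kb of a gene boundary, or 11.0% (9.87 to 12.2), where 47.1% of all short TAC-3 H3K4me3 peaks did. The placement share was 10.6%, so the sites were about as near to gene boundaries as positions taken without regard to genes. Private H3K4me3-only sites were near a boundary in 41.9% of cases, a difference of -30.9 points (-32.4 to -29.4), and common dual-marked sites in 13.2% (-2.21 points, -4.55 to -0.0268). The rule requires H3K36me3, and both dual-marked classes stood low, so the contrast with H3K4me3-only sites is not independent of the selection. The annotation used gives no strand or exons, so both ends of each gene were taken, and exons and introns were not distinguished. Restricting the comparison to sites over 1 kb from every gene boundary left the contrast in hotspots: 7.17% of 2567 private dual-marked sites met the RT-52 list there, beside 1.41% of 6048 private H3K4me3-only sites, a difference of 5.76 points (4.77 to 6.86). Within 1 kb of a boundary the shares were 6.01% and 0.298%.

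A protein-coding gene was met by 1988 sites, or 69.0% (67.2 to 70.6), where 67.2% of all short TAC-3 H3K4me3 peaks did and the placement share was 57.1%. The share was near that of H3K4me3 peaks in general: private H3K4me3-only sites stood at 62.3% (a difference of 6.63 points, 4.68 to 8.54), common H3K4me3-only sites at 68.3% (0.636 points, -1.15 to 2.37) and common dual-marked sites at 75.6% (-6.69 points, -9.63 to -3.64). The centre lay within a gene at 2012 sites (69.8%), a median of 12666 bp from the nearest end of that gene. No gene held more than 4 site centres, the number at each of LOC110503312, LOC110514101 and LOC110531736. Being in a protein-coding gene made no detectable difference to hotspots: 7.24% of the sites in such genes and 6.59% of the others met the RT-52 list (0.651 points, -1.45 to 2.55). Of 48 genes known for roles in meiotic recombination, 26 were matched in the annotation by symbol and 1 was the nearest gene of a site. Of all 54080 genes on chromosomes, 2589 (4.79%) were the nearest gene of a site. The meiotic gene was sycp1, which in mouse encodes the transverse filament protein of the synaptonemal complex. The site at chr2:7595069-7596317 lay within that gene, 2370 bp from its nearest end, had an H3K4me3 score of 175 and an H3K36me3 score of 231, sat inside an H3K36me3 peak of 10681 bp and met no DMC1 hotspot.

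H3K36me3 in TAC-1, which the rule did not use directly, was present at 512 of the 2938 sites, or 17.4% (16.1 to 18.8). Among all short TAC-3 H3K4me3 peaks, 26.9% had it. The placement share was 12.0%. At common dual-marked sites it was 88.1%, a difference of -70.7 points (-72.8 to -68.3), and at private H3K4me3-only sites 3.13%. The rule removes sites with TAC-1 H3K4me3 and every common site has it, so these shares are not independent of the selection. At 17.4%, the private dual-marked sites stood above placement and below all short TAC-3 H3K4me3 peaks. The 512 sites with TAC-1 H3K36me3 lay in protein-coding genes in 90.1% of cases on chromosomes (87.1 to 92.4), beside 64.5% (62.6 to 66.4) of the rest. Their TAC-3 H3K36me3 peaks were also wider, with a median of 2391 bp beside 1231 bp, and had higher scores, with a median of 203 beside 147. They met the RT-52 list in 6.45% of cases, beside 7.30% for the rest, and the interval of this difference (-0.851 points, -2.98 to 1.80) included 0.

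The shares depended on where the thresholds were set. Keeping only sites with an H3K4me3 score at or above the median of the TAC-3 list left 1568 sites, of which 1.47% met the TAC-3 list and 10.1% the RT-52 list, and with the width limit at 1500 bp these shares were 0.531% and 5.92%. When the TAC-1 H3K4me3 list was reduced to its 50548 highest scores, to equal the length of the TAC-3 list, 3520 sites were private, of which 28.1% had H3K36me3 in TAC-1, and the RT-52 share was 7.05%.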

How the data were processed

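ChIP-seq of H3K4me3 and H3K36me3 (TAC-3, TAC-1) and DMC1-SSDS (TAC-3, TAC-1, RT-52) were performed on testes. The authors aligned reads to USDA_OmykA_1.1 (the submitters' notes name BWA 0.7.17-r1188 and MACS2 2.2.7.1), called narrow histone peaks per replicate against input, merged peaks within 1 kb and kept those with a reciprocal overlap of 25% between replicates. The deposited score is the mean of the MACS2 scores of the peaks merged. For DMC1, peaks passed a reproducibility filter on pooled replicates, and the deposited score is a normalised hotspot value. The paper lists mapped reads per experiment, but read counts were not used here, so the depth behind a peak was not taken into account.

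Files were read with Python 3.11.15, pandas 2.3.3 and SciPy 1.17.1. Overlaps of at least 1 bp were used, and overlap and placement code was tested on simulated data against bedtools 2.31.1 and enumeration. Peak coordinates were matched to the 32 chromosomes by their gene boundaries in the RefSeq gene table of the same build (54080 genes on chromosomes). Chromosome length was taken as the largest annotated or called position. Shares have 95% Wilson intervals and differences between separate classes Newcombe intervals. With 1 list per individual, no test between conditions was possible.

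The sites named were the 5 highest scores of each mark, the 12 highest TAC-3 values among sites in both DMC1 lists, the sites at the width limit and those nearest a meiotic gene. Sites and gene lists were chosen with earlier results of these data known. The alternatives tried changed the width limit, overlap, scores, hotspot width and value, and gene windows. No sequences are shown, as no genome was used here.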

Additional observations from a re-analysis of the deposited data

How the results depend on the processing

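Of 77 alternative values computed for 8 results, 56 stayed within the counting error of the value reported (or within 1.5 times, for the number of sites) and 21 did not. Some of these outcomes were fixed by the setting, so the tally is no measure of robustness. As no site met the TAC-1 DMC1 list, settings that only remove sites or hotspots had to leave none. Other end or gene windows measure another quantity. With H3K4me3 scores at or above the list median, there were 1568 sites, with a median width of 1108 bp, and 1.47% met the TAC-3 list and 10.1% the RT-52 list. With H3K36me3 scores at or above the median, there were 1868 sites, with a median width of 940 bp, 20.5% of them in the outer 10% at each end and 22.8% with TAC-1 H3K36me3. With a width limit of 1500 bp, the median width was 688 bp, and the TAC-3 and RT-52 shares were 0.531% and 5.92%. A reciprocal overlap of 25% between both marks gave a median width of 930 bp, an RT-52 share of 8.26% and a TAC-1 H3K36me3 share of 12.9%. Hotspots at or above the median value of their list were met by 0.477% (TAC-3) and 3.57% (RT-52) of the sites, since about 50% of the hotspots were left. With the TAC-1 H3K4me3 list reduced to 50548 peaks, the TAC-1 H3K36me3 share was 28.1%. The outer 20% and the outer 1/30 at each end held 40.0% and 6.45% of the sites, protein-coding genes alone gave 9.68% near a boundary, and a window of 500 bp gave 7.63%. Where the cause is not given by the setting itself, the cause was not tested. The TAC-1 DMC1 list was met by 1 site with full-length hotspots and by 1 of 3520 sites with the reduced TAC-1 H3K4me3 list, and by none otherwise. The count on chromosomes only (2883 sites, RT-52 share 7.04%) was added after seeing the data. No paired analysis was possible because each list combines both replicates, and for the same reason no replicate could be left out. The intervals do not cover differences between individuals.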
